A study of Homo sapiens with 16 samples.

Results

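The 53 genes described here encode factors that make ribosomes: RNA polymerase I and its partners, small nucleolar ribonucleoprotein (snoRNP) proteins, assembly factors of the small and the large ribosomal subunit, nucleolar scaffold proteins, and the transcription factor MYC. They were listed by name, with no measured value in the rule, though earlier results of these data were known when the list was made. All 53 were found among the 28685 genes that could be joined over both experiments, and all 53 were among the 16430 genes that passed the filter on low counts. The libraries are poly-A RNA-seq of U2OS cells, a human osteosarcoma line, either wild-type (WT) or carrying the MDM2 change W329G, in isogenic cells made by CRISPR/Cas9 editing. There were 2 lines per genotype, numbered #1 and #2 in the labels, and each received DMSO or 50 µM 5-fluorouracil (5-FU) for 24 h. The design was run in 2 experiments with different sequencing vendors, which gave 4 groups (WT DMSO, WT 5-FU, W329G DMSO, W329G 5-FU) of 4 libraries. Replicates 1 and 2 are lines 1 and 2 of experiment 1, replicates 3 and 4 are lines 1 and 2 of experiment 2, and 4 values in a row below follow that order. Whether a line is 1 clone, and whether the experiments used separate cultures, is not given in the labels, so the p-values speak only of the spread among these libraries, which may be technical.

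Ribosome production begins in the nucleolus, where RNA polymerase I copies the ribosomal DNA into a long precursor with the help of UBTF, RRN3 and the TAF1 proteins. Box C/D and box H/ACA snoRNPs then methylate and pseudouridylate the precursor, the small subunit processome and the large subunit factors fold and cut it, and late factors finish the subunits. MYC is a transcription factor known for driving many of these genes through the E-box sequence in their promoters. 5-FU is known to disturb the processing of the ribosomal RNA precursor, and ribosomal proteins that are left without RNA bind the central region of MDM2, the ubiquitin ligase that keeps p53 low.

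Total counts ran from 24715999 to 56877328 per library. Mitochondrially encoded genes took 13.66% to 24.64% of the joined counts in WT DMSO libraries, 17.66% to 31.84% in WT 5-FU, 7.14% to 22.0% in W329G DMSO and 7.98% to 26.02% in W329G 5-FU. With those genes left out, 5 members were called in the WT response, 2 in the W329G response, 0 in the difference, 0 between genotypes under DMSO and 7 under 5-FU, against 7, 2, 0, 0 and 7 with them. The share of all tested genes called with mitochondrial genes left out is not given here. Of 8 mesenchymal and osteoblast markers 7 or 8 averaged at least 1 CPM (counts scaled to library size, the usual unit of RNA-seq levels) in each group, with a sum of 6304 to 15604 CPM. All 6 epithelial markers also averaged at least 1 CPM (sum 137 to 720 CPM), as did 4 of 5 neural markers (sum 22.2 to 69.5 CPM), while of 6 blood cell markers 1 did. The blood markers summed to 41 to 134 CPM in experiment 1, of which LYZ made up 39.8 to 133 CPM, and to 0.897 to 1.78 CPM in experiment 2, and CD3E and HBB averaged under 0.1 CPM in each group. The part of these markers in the results was not tested. As a check of the treatment, MDM2 itself measured 42.6, 47.6, 74.4 and 79 CPM without and 201, 193, 286 and 236 CPM with 5-FU in the WT libraries. For W329G libraries the values were 59.8, 42.7, 71.7 and 117 CPM without and 75, 58.1, 65.4 and 102 CPM with the drug. CDKN1A, also chosen as a check, went from 120, 169, 103 and 80.3 CPM to 845, 1071, 421 and 377 CPM in WT libraries. In W329G libraries CDKN1A went from 120, 126, 70.8 and 59.3 CPM to 239, 177, 111 and 92 CPM (log2 fold change 0.70 ± 0.16, edgeR adjusted p = 0.0607). Gene counts do not show the edited codon, so they do not check the genotype labels.

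Levels of the members spanned a wide range. Per kilobase of exon and averaged over the 16 libraries, NPM1, a nucleolar chaperone, was the highest at 390 CPM per kb, followed by NCL (nucleolin) at 134 and FBL (fibrillarin, the methyltransferase of box C/D snoRNPs) at 93 CPM per kb. Among the RNA polymerase I genes the activator UBTF was the highest with 30.4 CPM per kb, and POLR1A, the largest subunit, stood at 7.19 CPM per kb. PWP2, a small subunit processome protein, was the lowest at 0.161 CPM per kb and measured 0.218 to 0.81 CPM in experiment 1 but 1.17 to 2.95 CPM in experiment 2, so its level is uncertain. NPM1 has 45 pseudogenes of its name in GENCODE 29, and how reads shared with them were counted is not known here.

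The experiments set part of these levels. For 16 of the 53 genes the range of experiment 1 did not overlap that of experiment 2, with 10 of them higher in experiment 1. FBL ran from 231 to 370 CPM in experiment 1 and from 105 to 131 CPM in experiment 2. NOP53, a large subunit factor that recruits the exosome to pre-ribosomes, ran from 176 to 402 and from 78.7 to 145 CPM. PPAN, a large subunit factor, showed the other order with 5.61 to 15.3 CPM in experiment 1 and 19.4 to 30.8 CPM in experiment 2. The main fit of the 5-FU responses therefore carries a term for experiment, and a fit without that term is given as an alternative.

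The lines also differed, and not in the same way in both experiments. In W329G cells NOP56, a core protein of box C/D snoRNPs, stood at 119 CPM (DMSO) and 96.6 CPM (5-FU) in line 1 of experiment 1, and at 222 and 260 CPM in line 2. In experiment 2 the order of the lines was the opposite, with 294 and 294 CPM in line 1 and 176 and 165 CPM in line 2. GNL3 (nucleostemin) moved with NOP56, at 50.7 and 45.4 CPM against 86.2 and 108 CPM in experiment 1 and 126 and 123 CPM against 98.4 and 77.4 CPM in experiment 2. HEATR1, a processome protein, did the reverse, with 89.9 and 99 CPM in line 1 and 59 and 62.6 CPM in line 2 of experiment 1, and 78.9 and 73 CPM against 117 and 115 CPM in experiment 2. Across all 16430 genes, which are not independent replicates, the difference of line 1 from line 2 in experiment 1 correlated negatively with that in experiment 2 (Pearson r = -0.485 under DMSO and -0.568 under 5-FU in W329G, -0.19 and -0.303 in WT). These cell numbers thus go against each other between the experiments. Sums by the labelled number can therefore even out differences between lines, and their SEs and p-values may understate that spread. Results on lines summed over both experiments are given below also with the numbers exchanged in experiment 2.

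The first comparison asks how 5-FU changed the genes in WT cells. In WT cells 7 of the 53 members (13.2%) fell under 5-FU, against 5.22% of all tested genes that fell, and 0 of 53 rose, against 3.56%. The 7 were NOP53, UBTF, NCL, NOP58, GNL2, NPM1 and NOLC1, with falls between 0.46 and 0.76 on the log2 scale. The median log2 change over all 53 was -0.15, against 0.01 over all tested genes, and 39 of 53 values (73.6%) were below 0, against 48.8% of all tested genes. By role, 3 of the 4 nucleolar scaffold genes fell (NCL, NPM1, NOLC1), as did 1 of 3 box C/D genes (NOP58), 2 of 17 large subunit genes (NOP53, GNL2) and 1 of 7 RNA polymerase I genes (UBTF). None of the 4 box H/ACA, 12 processome and 5 late small subunit genes passed the test, nor did MYC.

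**Figure D1:**
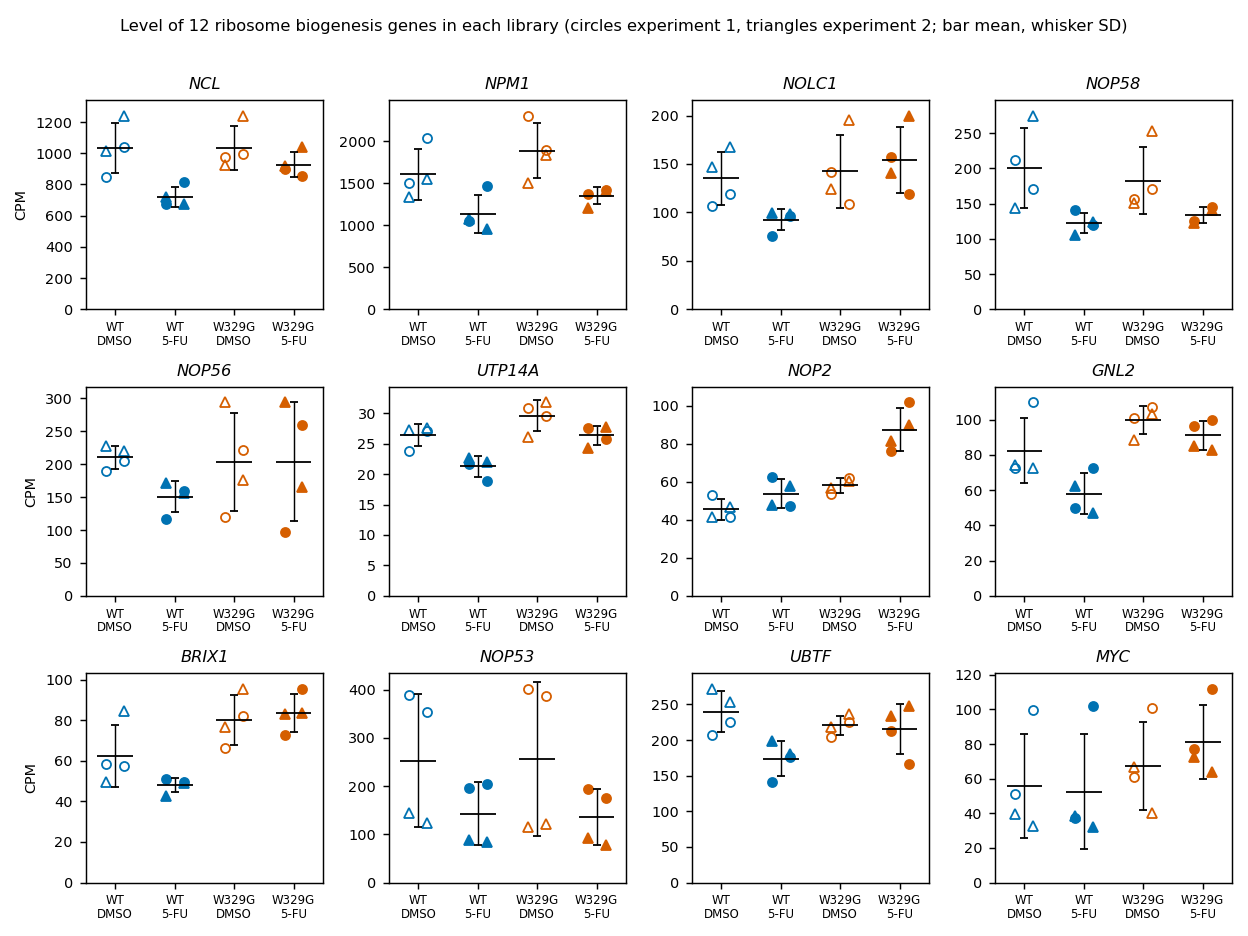
CPM (vertical axis, from 0) of 12 genes in each of the 16 libraries, by genotype and treatment. Points left of a bar are line 1 and points right of it line 2, circles are experiment 1, triangles experiment 2, bars the mean of 4 libraries and whiskers the SD. In WT cells NCL, UBTF and NOLC1 show no overlap between DMSO and 5-FU libraries, and NOP2 in W329G cells lies at 53.6 to 62 CPM under DMSO and 76.1 to 102 CPM under 5-FU.

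NCL (chromosome 2, 231453531 to 231483641, minus strand, in the GRCh38 coordinates of the experiment 1 files) encodes the abundant RNA-binding protein nucleolin. In WT cells it measured 850, 1039, 1012 and 1242 CPM under DMSO and 674, 813, 723 and 675 CPM under 5-FU, so that every 5-FU library lay below every DMSO library. Its log2 fold change was -0.51 ± 0.13 (SE, n = 4 per group, edgeR adjusted p = 0.0213), with -0.34 in experiment 1 and -0.69 in experiment 2. NOLC1 (chromosome 10, 102152176 to 102163871, plus strand) encodes a chaperone of snoRNPs and RNA polymerase I. It stood at 107, 119, 147 and 168 CPM under DMSO and at 76, 96, 99.5 and 98 CPM in 5-FU libraries of WT cells, again without overlap. The log2 fold change of NOLC1 was -0.53 ± 0.16 (SE, edgeR adjusted p = 0.0488). NPM1 went from 1500, 2032, 1335 and 1551 CPM to 1047, 1470, 1069 and 949 CPM, with the line 2 library of experiment 1 under 5-FU inside the DMSO range. Its log2 fold change was -0.50 ± 0.14 (SE, edgeR adjusted p = 0.0412).

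NOP53 (chromosome 19, 47745522 to 47757058, plus strand) showed the largest fall of the 53 genes. It stood at 388, 354, 145 and 123 CPM under DMSO and at 196, 204, 88.1 and 84.1 CPM in 5-FU libraries of WT cells, below DMSO in each of the 4 pairs, while the groups overlapped because of the gap between experiments. The log2 fold change was -0.76 ± 0.13 (SE, edgeR adjusted p = 0.00146). GNL2, a GTPase of nuclear large subunit assembly, went from 72.5, 110, 74.5 and 72.5 CPM to 50, 72.8, 62.4 and 47.1 CPM. The groups touched at the line 2 library of experiment 1, and the log2 fold change was -0.50 ± 0.14 (SE, edgeR adjusted p = 0.04). NOP58, the partner of NOP56 in box C/D snoRNPs, went from 212, 171, 144 and 275 CPM to 141, 120, 106 and 124 CPM with no overlap, at a log2 fold change of -0.71 ± 0.19 (SE, edgeR adjusted p = 0.032).

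Of the RNA polymerase I genes, only UBTF passed the test in WT cells. UBTF (chromosome 17, 44205033 to 44221626, minus strand), which binds the ribosomal DNA promoter and opens the repeat for transcription, stood at 207, 226, 272 and 253 CPM under DMSO and at 141, 176, 199 and 180 CPM under 5-FU. No 5-FU library reached the DMSO range, and the log2 fold change was -0.46 ± 0.11 (SE, edgeR adjusted p = 0.0152), with -0.45 and -0.46 in experiments 1 and 2. The catalytic subunits passed no test. POLR1A measured 74.8, 96.9, 99.2 and 87.7 CPM under DMSO against 87.6, 99.8, 92.5 and 104 CPM under 5-FU. POLR1B, the second largest subunit, measured 40.7, 55.2, 42 and 55.4 CPM against 48, 65.1, 53.5 and 58.5 CPM, higher in each of the 4 pairs with overlapping groups (log2 fold change 0.22 ± 0.13, edgeR adjusted p = 0.354). RRN3, which makes the polymerase competent to start, measured 36.1, 43.8, 40.2 and 50.7 CPM against 39.2, 43.1, 44.2 and 47.4 CPM (log2 fold change 0.03 ± 0.12).

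With each line's DMSO and 5-FU library of an experiment paired as a replicate block, 17 of 53 members (32.1%) fell in WT cells, against 13.1% of all tested genes, and 1, NOP2, rose, against 11.6%. The 7 genes above were among them, joined by NOP56, EBNA1BP2, DKC1, WDR12, UTP14A, RRP1B, TSR1, NOB1, BRIX1 and GNL3. NOP56 measured 189, 204, 228 and 220 CPM in DMSO libraries and 117, 159, 171 and 156 CPM in 5-FU libraries of WT cells, with no overlap (log2 fold change -0.49 with the block, edgeR adjusted p = 0.00251). DKC1, the pseudouridine synthase of box H/ACA snoRNPs, measured 141, 192, 155 and 158 CPM against 123, 154, 118 and 107 CPM (-0.37 with the block, edgeR adjusted p = 0.00687). UTP14A, a processome protein, measured 23.7, 27, 27.3 and 27.6 CPM against 21.7, 18.8, 22.6 and 22 CPM with no overlap (-0.31 with the block, edgeR adjusted p = 0.0201). As a description without a test, 23 of the 53 genes (43.4%) were lower under 5-FU in all 4 WT pairs, against 21.2% of all tested genes, and 6 (11.3%) were higher in all 4, against 20.7%.

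Fewer members were called in WT cells when 1 replicate was left out. The same held for all tested genes, of which the main fit called 8.78%. NOP53 was called without any 1 replicate, whereas without replicates 2 or 4 it was the only member called, without replicate 1 NCL was called beside it, without replicate 3 GNL2, NOP58 and UBTF were, and with no term for experiment 0 members were called. These fits called 4.53%, 3.99%, 7.12% and 3.99% of all tested genes without replicates 1 to 4, and 2.44% with no term for experiment.

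**Figure D2:**
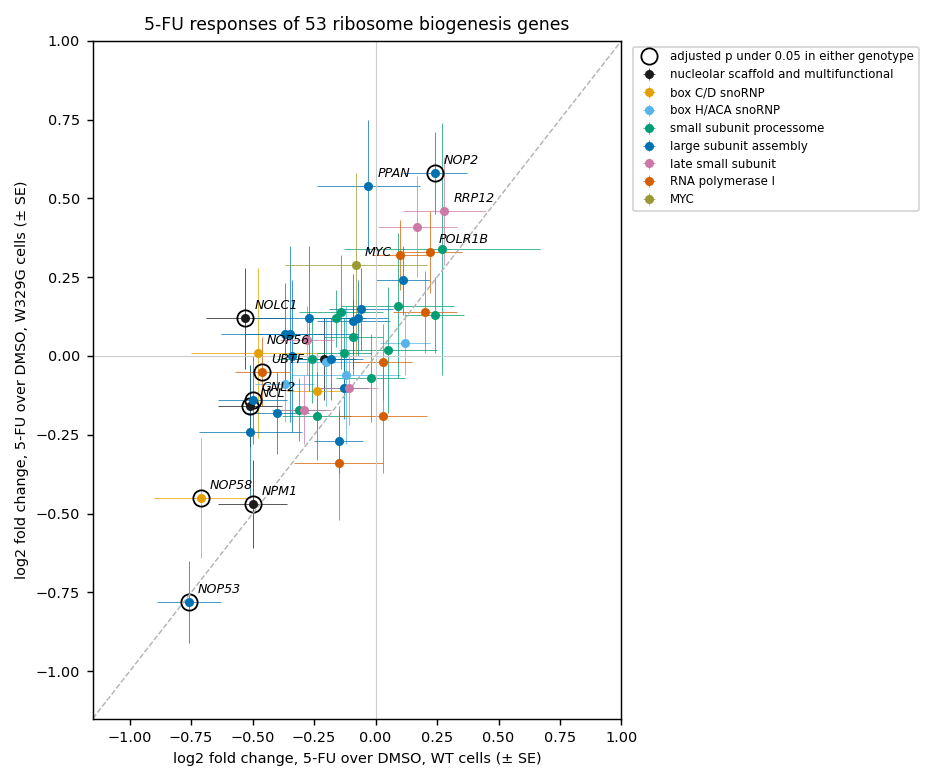
Log2 fold change under 5-FU in WT cells (horizontal axis) against W329G cells (vertical axis) for the 53 genes, each with its SE and coloured by role; the dashed line marks equal responses and circles mark adjusted p under 0.05 in either genotype. NOP53 lies on the line at -0.76 and -0.78, and NOLC1 lies above it at -0.53 and 0.12.

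The second comparison asks the same in W329G cells. Here 1 of 53 members fell, NOP53, and 1 rose, NOP2, against 0.59% and 0.195% of all tested genes, and 0.785% in either direction. The median log2 change of the 53 was 0.01, against 0.02 over all tested genes, and 25 of 53 were below 0. NOP53 stood at 402, 386, 115 and 121 CPM under DMSO and at 194, 176, 93.4 and 78.7 CPM under 5-FU, lower in each pair. Its log2 fold change of -0.78 ± 0.13 (SE, edgeR adjusted p = 0.0123) lay beside the -0.76 of WT cells, and their difference was -0.01 ± 0.18 (edgeR adjusted p = 0.998). NOP2 (chromosome 12, 6556863 to 6568691, minus strand), a methyltransferase of the large subunit RNA, stood at 53.6, 62, 56.8 and 60.3 CPM under DMSO and at 76.1, 102, 81.3 and 90.1 CPM under 5-FU with a clear gap between the groups. The log2 fold change of NOP2 was 0.58 ± 0.13 (SE, edgeR adjusted p = 0.0474).

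In WT cells NOP2 measured 53.1, 41.7, 41.3 and 46.7 CPM under DMSO and 62.6, 47.1, 47.7 and 58 CPM under 5-FU, higher in each pair with overlapping groups (log2 fold change 0.24 ± 0.13, edgeR adjusted p = 0.31, and 0.0476 with the replicate block). With the replicate block 6 members rose in W329G cells (11.3%, against 5.14% of all tested genes) and 3 fell (5.66%, against 5.79%). The 6 were NOP2, PPAN, RRP12, POLR1B, BYSL and POLR1A, and the 3 were NOP53, NPM1 and NOP58. POLR1A measured 78.1, 93.3, 101 and 89.5 CPM under DMSO and 120, 102, 120 and 110 CPM under 5-FU, without overlap (log2 fold change 0.32 with the block, edgeR adjusted p = 0.0497). POLR1B measured 50.1, 51.9, 61.7 and 58.1 CPM against 65.1, 73.4, 68.2 and 71.6 CPM, also without overlap (0.33 with the block, edgeR adjusted p = 0.0285). These are the largest and the second largest subunit of the polymerase. RRP12, an export factor of pre-ribosomes, measured 54.9, 63.2, 46.1 and 35.7 CPM against 68, 68.6, 63.6 and 68.3 CPM (0.46 with the block, edgeR adjusted p = 0.028).

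BYSL, a factor of late small subunit assembly, measured 39.3, 46.6, 27.1 and 15.3 CPM against 48.6, 52.2, 34.1 and 29.8 CPM (0.43 with the block, edgeR adjusted p = 0.0359). PPAN measured 5.61, 9.6, 20.5 and 19.4 CPM against 8.1, 15.3, 30.8 and 24.8 CPM (0.53 with the block, edgeR adjusted p = 0.0153), and part of its exons are shared with P2RY11 on the same strand. Both genes were higher under 5-FU in each of the 4 pairs, with overlapping groups. BYSL overlapped only because of the gap between experiments. PPAN overlapped also within experiment 1, at 9.6 CPM in line 2 under DMSO and 8.1 CPM in line 1 under 5-FU. NPM1 measured 2304, 1898, 1504 and 1836 CPM in DMSO libraries and 1371, 1418, 1206 and 1407 CPM in 5-FU libraries of W329G cells, with no overlap and a log2 fold change of -0.47 ± 0.14 that passed only with the block (edgeR adjusted p = 0.155 without and 0.0147 with it). The W329G calls without the block were not stable: NOP2 was called in none of the 4 fits that left out 1 replicate, and NOP53 only in the fit without replicate 3. Calls over all tested genes dropped too, from 0.785% in the main fit to 0.133%, 0.0845%, 0.121% and 0.066% without replicates 1 to 4. With no term for experiment 0 members were called in W329G cells, against 0.0426% of all tested genes.

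The third comparison asks whether the 2 genotypes responded differently. The test of the difference called 0 of 53 members, against 1.21% of all tested genes (4 members at an unadjusted p under 0.05 in edgeR, 0 called and 5 unadjusted in DESeq2). The median difference, W329G response minus WT response, was 0.18, against 0.01 over all tested genes, and 43 of 53 differences (81.1%) were above 0, against 51.4% of all tested genes. In 10 genes every WT pair lay below every W329G pair (18.9%, against 7.11% of all tested genes), and in 0 of 53 genes every WT pair lay above (against 5.92%). The 10 were NCL, NOLC1, NOP56, DKC1, UTP4, NOP2, RRP1B, PPAN, TSR1 and MYC. The box C/D, scaffold and late small subunit genes had differences above 0 in 3 of 3, 4 of 4 and 5 of 5 members, with medians of 0.26, 0.28 and 0.18. The RNA polymerase I genes were mixed, with 3 of 7 above 0 and a median of -0.05.

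**Figure D3:**
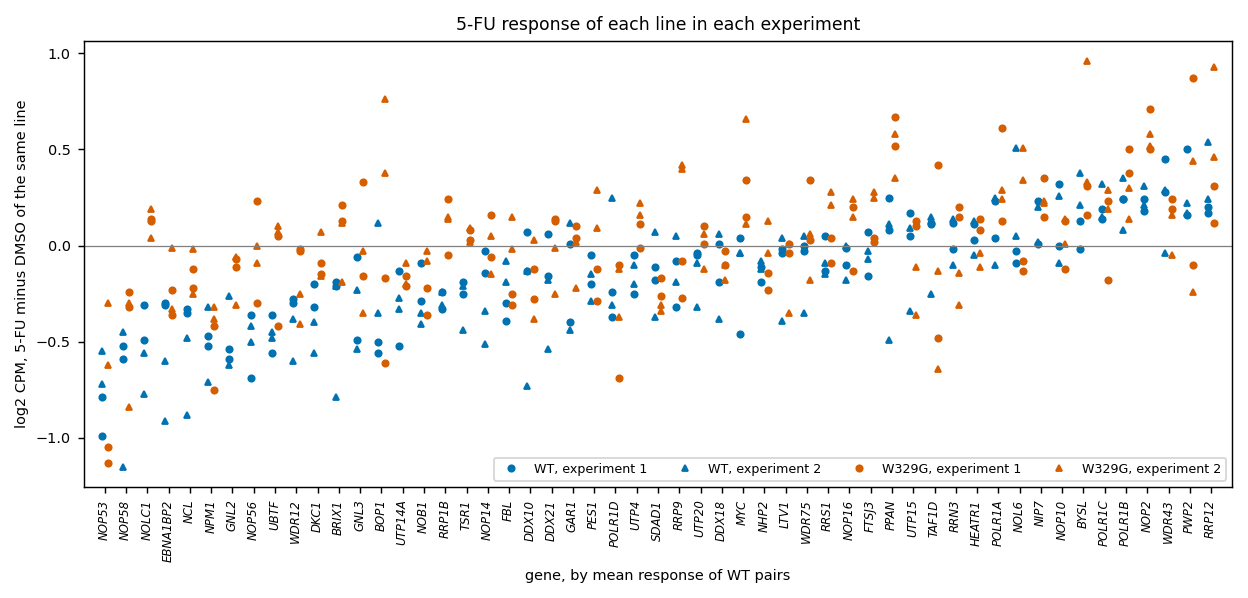
Response of each DMSO and 5-FU pair in log2 CPM, the treated minus the control library (vertical axis), for each of the 53 genes, ordered by the mean of the WT pairs; blue points are the 4 WT pairs, orange points the 4 W329G pairs, circles experiment 1 and triangles experiment 2. At the left end NOP53 and NOP58 are below 0 in all 8 pairs, while NOLC1 is below 0 in the 4 WT pairs and above 0 in the 4 W329G pairs.

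NOLC1 had the smallest p of the members. Its responses were -0.49, -0.31, -0.56 and -0.77 log2 CPM in the WT pairs and 0.14, 0.13, 0.19 and 0.04 log2 CPM in the W329G pairs, opposite in sign in all 8. In W329G cells NOLC1 measured 142, 109, 124 and 195 CPM under DMSO and 157, 119, 141 and 200 CPM under 5-FU. The difference was 0.65 ± 0.23 (SE, edgeR adjusted p = 0.261), and with the replicate block it was 0.66 (edgeR adjusted p = 0.00594), the 1 member called there, against 6.15% of all tested genes. TSR1, a GTPase-like factor of late small subunit assembly, also had opposite signs, at -0.19, -0.25, -0.21 and -0.44 log2 CPM in WT and 0.08, 0.03, 0.09 and 0.02 log2 CPM in W329G pairs, with a difference of 0.33 ± 0.15 (SE, edgeR adjusted p = 0.51). UBTF measured 204, 225, 218 and 236 CPM in DMSO libraries and 212, 167, 234 and 248 CPM in 5-FU libraries of W329G cells. Its W329G response was -0.42 log2 CPM in line 2 of experiment 1 and between 0.05 and 0.10 in the other pairs, and its difference from WT was 0.41 ± 0.15 (SE, edgeR adjusted p = 0.336).

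The fourth comparison set W329G against WT cells under DMSO, with the counts of a line added up over the experiments. It called 0 of 53 members, against 1.42% of all tested genes (7 members at an unadjusted p under 0.05 in edgeR, and 1 called by DESeq2, HEATR1, against 7.26% of all tested genes there). The median log2 difference was 0.04, against 0.00 over all tested genes. HEATR1 measured 44.3, 63, 59.1 and 65.7 CPM in WT and 89.9, 59, 78.9 and 117 CPM in W329G libraries under DMSO, which overlapped. Its log2 difference was 0.54 ± 0.12 (SE, 2 lines per genotype, edgeR adjusted p = 0.0658, DESeq2 adjusted p = 0.00315), and with exchanged cell numbers the edgeR adjusted p was 0.665, with 0 members called against 0.0115% of all tested genes. NOP2 was the 1 member whose 4 W329G libraries under DMSO all lay above the 4 WT libraries, and NOP16 the 1 whose W329G libraries all lay below them (1.89% each, against 1.59% and 1.8% of all tested genes). Within both experiments at once W329G libraries were above in 2 genes, NOP2 and TAF1D (3.77%, against 5.51%), and below in NOP16 alone (against 6.53%).

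The fifth comparison set the genotypes against each other under 5-FU. On line sums 7 of 53 members (13.2%) were higher in W329G cells, against 7.27% of all tested genes, and 0 were lower, against 7.11%, with 14.4% called in either direction. These were NOLC1, NOP2, GNL2, BRIX1, HEATR1, NOP14 and NOP56. The median log2 difference was 0.23, against -0.01 over all tested genes, and 44 of 53 values (83%) were above 0, against 49% of all tested genes. With the cell numbers exchanged in experiment 2, 0 members were called (12 at an unadjusted p under 0.05), against 1.27% of all tested genes. A fit on single libraries with a term for experiment counts each library as a replicate, although a genotype has only 2 lines. In that fit 8 members (15.1%) were higher, against 6.84% of all tested genes, and these were BRIX1, DDX21, GNL2, NOLC1, NOP2, TSR1, WDR12 and WDR75. This comparison shares its libraries with the 5-FU responses above, so its values are no independent evidence of them.

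**Figure D4:**
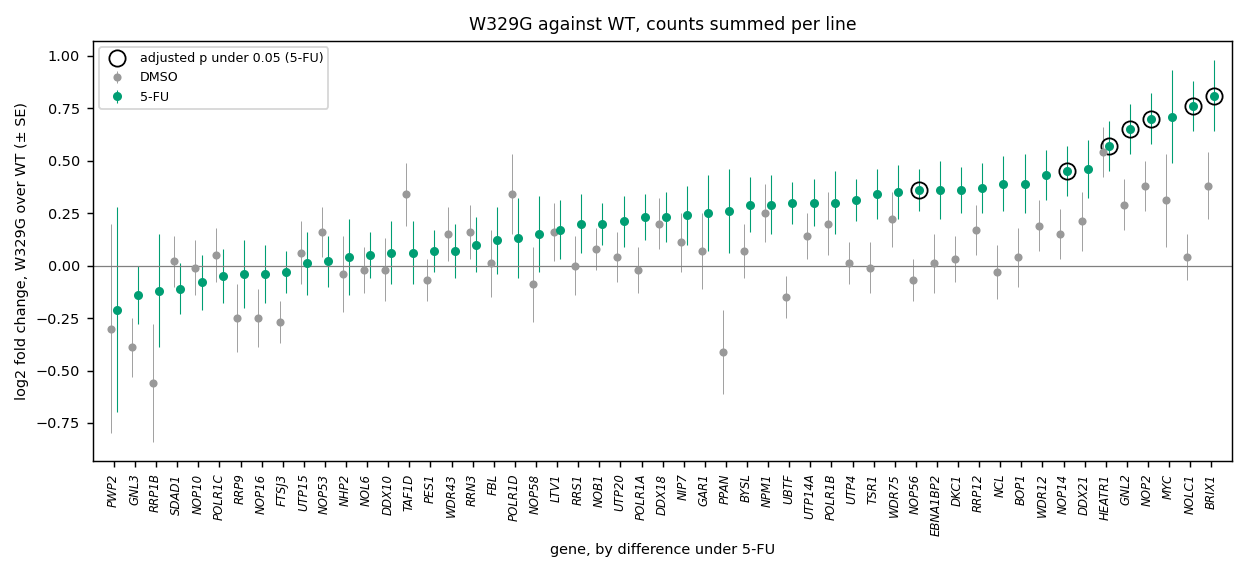
Log2 fold change of W329G over WT cells (vertical axis, ± SE) for the 53 genes on counts summed per line, grey under DMSO and green under 5-FU, ordered by the 5-FU value; circles mark adjusted p under 0.05 under 5-FU. The values run from -0.21 (PWP2) to 0.81 (BRIX1) under 5-FU, and HEATR1 shows like values under both treatments (0.54 and 0.57).

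Whole groups of libraries were apart for part of these genes. Under 5-FU every W329G library lay above every WT library in 11 of 53 genes (20.8%, against 6.46% of all tested genes), and every W329G library lay below in 0 (against 5.08%). The 11 were NCL, NOLC1, DDX21, UTP4, UTP14A, NOP14, NOP2, BRIX1, GNL2, TSR1 and POLR1B. Within both experiments at once W329G libraries were above in 20 genes (37.7%, against 13.8%) and below in 0 (against 12%). NOLC1 measured 76 to 99.5 CPM in WT and 119 to 200 CPM in W329G libraries under 5-FU, a log2 difference of 0.76 ± 0.12 (SE, edgeR adjusted p = 0.0039, and 0.163 with exchanged numbers). For NOP2 the libraries ran from 47.1 to 62.6 CPM and from 76.1 to 102 CPM (0.70 ± 0.12, edgeR adjusted p = 0.00587, and 0.0821 exchanged). Both genes were thus apart between the genotypes in the single libraries under 5-FU. Such ranges do not depend on how the lines are numbered, so they do not answer the exchanged p-values. Under DMSO NOLC1 overlapped, at 107 to 168 CPM in WT and 109 to 195 CPM in W329G libraries. NOP2 did not overlap there, at 41.3 to 53.1 and 53.6 to 62 CPM.

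BRIX1, a large subunit factor of the Brix domain family, measured 51.2, 49.4, 42.8 and 48.9 CPM in WT and 72.6, 95.4, 83.2 and 83.5 CPM in W329G libraries under 5-FU (0.81 ± 0.17, edgeR adjusted p = 0.0139, and 0.078 exchanged). The exons of BRIX1 overlap RAD1 on the opposite strand, over 9.62% of its exon bases. Larger overlaps of this kind include HEATR1 with LGALS8 (23.2%), TSR1 with SRR (20.7%) and NOP14 with NOP14-AS1 (17.1%). The strand setting of the counting is not known here. GNL2 measured 50, 72.8, 62.4 and 47.1 CPM against 96.4, 99.6, 85.3 and 83.1 CPM (0.65 ± 0.12, edgeR adjusted p = 0.00862, and 0.149 exchanged). NOP14, a processome protein, measured 26.9, 36.1, 30.9 and 28.2 CPM against 37.4, 44.1, 44.9 and 40.5 CPM (0.45 ± 0.12, edgeR adjusted p = 0.0341, and 0.213 exchanged). In BRIX1, GNL2 and NOP14 the 2 genotypes did not overlap under 5-FU. NOP56 and HEATR1 differ from them, since their groups overlapped: NOP56 ran from 117 to 171 CPM in WT and from 96.6 to 294 CPM in W329G libraries, and HEATR1 from 47.7 to 64.8 and from 62.6 to 115 CPM. For both, single libraries gave no call (edgeR adjusted p = 0.342 and 0.0867).

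The number of calls between genotypes changed when 1 line was left out, among the members and among all tested genes. Under 5-FU the fit that left out WT line 1 called 5 members (9.43%, against 13.9% of all tested genes). That without WT line 2 called 14 (26.4%, against 16.5%), 13 higher and 1 lower. Those without W329G line 1 or line 2 called 0, against 1.84% and 0.998% of all tested genes. Under DMSO the fit without WT line 2 called 5 members (9.43%, against 12.8%), and the other 3 fits called 0 members, against 0.768% of all tested genes without WT line 1 and 0.00557% without either W329G line.

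MYC, the transcription factor of the set, was called in none of the 5 comparisons. In WT cells MYC measured 50.9, 99.5, 39.5 and 32.9 CPM under DMSO and 37.1, 102, 38.4 and 32 CPM under 5-FU, so line 2 of experiment 1 stood apart under both treatments. In W329G cells it measured 61, 101, 67 and 40.2 CPM under DMSO and 77.1, 112, 72.3 and 63.7 CPM under 5-FU, higher in each of the 4 pairs with overlapping groups. The response was -0.08 ± 0.29 in WT (edgeR adjusted p = 0.92) and 0.29 ± 0.29 in W329G cells (edgeR adjusted p = 0.735). Under 5-FU W329G lines were 0.71 ± 0.22 above WT lines on the log2 scale (edgeR adjusted p = 0.0685, and 0.368 with exchanged numbers, DESeq2 adjusted p = 0.0114), with 0.44 in experiment 1 and 0.93 in experiment 2. The gap between the WT lines of experiment 1 alone was 0.97 log2 CPM under DMSO and 1.46 under 5-FU.

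The MYC partners and antagonists moved singly. Of 11 such genes 1 rose and 2 fell in WT cells, against 3.56% and 5.22% of all tested genes: MXD4, a repressor that competes with MYC for MAX, rose by 1.18 ± 0.21 (SE, edgeR adjusted p = 0.00218), while MXD3 (-0.99 ± 0.21, adjusted p = 0.00747) and MYCN (-1.62 ± 0.45, adjusted p = 0.0331) fell. MXD4 measured 44.6, 40.2, 29.8 and 18.1 CPM under DMSO and 76.4, 90.5, 59.9 and 65 CPM in 5-FU libraries of WT cells, and 42.5, 44.1, 21.2 and 14.5 CPM against 24, 21.9, 21.9 and 16.9 CPM in W329G cells. The WT groups do not overlap and the W329G groups do. The responses differed by -1.60 ± 0.30 (SE, edgeR adjusted p = 0.0122), and under 5-FU MXD4 was lower in W329G than in WT lines by 1.75 on the log2 scale (a log2 fold change of -1.75 ± 0.15, edgeR adjusted p = 0.000475, and 0.0112 with exchanged numbers). MYCL was also lower in W329G lines under 5-FU (-1.03 ± 0.19, adjusted p = 0.00814, and 0.125 with exchanged numbers), and MXI1 was higher under DMSO (0.63 ± 0.11, adjusted p = 0.0396, and 0.558 exchanged). MYCN was low, at 0.335 to 7.48 CPM over all libraries.

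The promoters of the members were searched for the E-box that MYC and MAX bind, the palindrome CACGTG. RefSeq promoters of GRCh38.p14, from 250 bases before to 50 after the gene start, were found for 45 of the 53 genes. CACGTG stood in 17 of the 45 (37.8%), against 9.59% of the 12289 promoters of tested genes and 7.43% of all 27305 promoters. In 14 of the 45 (31.1%) it lay within 50 bases of the RefSeq start, against 3.82% of tested genes, a distance chosen after the positions were seen. For comparison, CCAAT on either strand stood in 37.8% of the members' promoters and 36% of those of tested genes, and GGGCGG in 77.8% and 66.7%. The 8 stretches of 22 bases below show the E-box in capitals in genes described above and in their complexes, 5′ to 3′ on the gene's strand. They do not show every position. In UTP14A it lies far before the start, from base -241, as it does in EBNA1BP2 (-237) and SDAD1 (-228), which are not printed. NOP10 has another E-box from base -170, also not printed. Bases are counted from the RefSeq start, with base 1 the first base of the transcript there and negative bases before it. That start lay inside the gene of the experiment 1 files by 400 bases in NOP2, 311 in BYSL, 1358 in UTP4, 43 in UTP14A, 41 in NOP10 and 35 in FBL, and lay before it by 21 bases in NOP14 and 2 in GNL2.
GNL2 (chr1:37595921-37595942, minus strand, E-box from base 4): gtcgtgcaCACGTGgtccggcg
NOP2 (chr12:6568243-6568264, minus strand, E-box from base 36): ccggattgCACGTGgagggccg
NOP14 (chr4:2963378-2963399, minus strand, E-box from base 16): cggcccggCACGTGtcttaggg
FBL (chr19:39846360-39846381, minus strand, E-box from base 7): ctcttttcCACGTGcgaaagcc
BYSL (chr6:41921519-41921540, plus strand, E-box from base 29): tcagtcccCACGTGcgatcctt
UTP4 (chr16:69132625-69132646, plus strand, E-box from base -16): cgcgcgcgCACGTGgggccggg
NOP10 (chr15:34343134-34343155, minus strand, E-box from base -11): ttgacgaaCACGTGacgcggtc
UTP14A (chrX:129905915-129905936, plus strand, E-box from base -241): ccttgggcCACGTGgaaaccag

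Responses with and without the E-box lay close together. The 17 genes with it had a median log2 response of -0.14 in WT cells with 1 called (GNL2), and the 28 without it -0.17 with 4 called. All these calls were falls, and 5.22% of all tested genes fell. In W329G cells the medians were 0.01 and -0.01, and between genotypes under 5-FU 0.17 and 0.24. A match of these letters is a description of the sequence and not a bound site.

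Another feature that the choice of genes did not use is that 11 of the 53 genes hold small nucleolar or other structured RNA genes inside them, among them NCL (3), NOP56 (5), NOP58 (4), GNL3 (6) and TAF1D (8). The 11 hosts had a median log2 response of -0.34 in WT cells with 3 called (NCL, NOP58 and NOP53), and the other 42 genes -0.14 with 4 called. All these calls were falls, and 5.22% of all tested genes fell. The contrast rests on few genes and was not tested. In W329G cells the medians were 0.00 and 0.02. Poly-A libraries measure the host transcripts and not the small RNAs.

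Beyond the 53, a list of 99 other ribosome biogenesis genes was counted in the same way. In WT cells 1 rose and 4 fell (5.05% called, against 8.78% of all tested genes): DIMT1, the small subunit dimethyltransferase (-0.61 ± 0.13, edgeR adjusted p = 0.00634), the exosome subunits EXOSC9 (-0.71 ± 0.15, adjusted p = 0.00823) and EXOSC8 (-0.58 ± 0.13, adjusted p = 0.0122), and LAS1L (-0.41 ± 0.11, adjusted p = 0.0251) fell, while RCL1 rose (0.52 ± 0.14, adjusted p = 0.0336). The median of the 99 was -0.13 in WT and 0.06 in W329G cells, where 0 of 99 were called (13 at an unadjusted p under 0.05 in edgeR). The difference of responses had a median of 0.16 with 80 of 99 above 0, and 0 called (9 unadjusted). With the replicate block, 6 of the 99 were called there (6.06%, against 6.15% of all tested genes), all above 0, among them TCOF1 (treacle, a partner of RNA polymerase I; 0.72, edgeR adjusted p = 0.00496).

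Between genotypes under 5-FU 18 of the 99 were higher in W329G lines (18.2%, against 7.27% of all tested genes) and 0 were lower. Those with the smallest p were URB2 (0.77 ± 0.12, adjusted p = 0.00401), TAF1A, a subunit of the RNA polymerase I selectivity factor (0.96 ± 0.16, adjusted p = 0.00549), POLR1E (0.64 ± 0.12, adjusted p = 0.00835) and EXOSC2 (0.72 ± 0.13, adjusted p = 0.00905). With exchanged cell numbers 0 of the 99 were called (19 at an unadjusted p under 0.05), against 1.27% of all tested genes, and the edgeR adjusted p values of these 4 were 0.237, 0.241, 0.0931 and 0.173. A list of 7 genes around the 5S ribonucleoprotein and MDM2 binding held the ribosomal protein genes RPL5, RPL11, RPL23, RPL26 and RPS7, with GTF3A and HEATR3. The list gave 0 calls in each of the 5 comparisons, with 0, 3, 0, 2 and 0 genes at an unadjusted p under 0.05 in edgeR. RPL5 measured 1050, 902, 571 and 1004 CPM in DMSO libraries and 886, 775, 496 and 720 CPM in 5-FU libraries of WT cells, and 1165, 897, 650 and 927 CPM against 729, 705, 529 and 599 CPM in W329G cells. With the replicate block its W329G response of -0.49 was called (edgeR adjusted p = 0.0091), in a fit where 5.79% of all tested genes fell. Its WT response with the block was -0.29 (edgeR adjusted p = 0.0504), and the difference of its responses was not called.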

How the data were processed

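Libraries were TruSeq preparations of poly-A RNA, per the labels' protocols. The authors deposited raw counts per gene, 1 table for each of 16 libraries, with Ensembl IDs in experiment 1 and symbols in experiment 2. Which aligner, counter and strand setting were used is not given in the sources used here. Per the submitters' processing notes the build is hg19, while 96.3% of the genes of experiment 1 that are also in GENCODE 29 have its GRCh38 start and end, so coordinates here are GRCh38. Of 57500 and 28890 genes, 28685 were joined by symbol (28443 directly, 242 through an older symbol; 19 ambiguous symbols left out), holding 97.91% to 98.89% of each library's counts.

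Counts were tested with edgeR 4.0.16 in R 4.3.3 (quasi-likelihood test with TMM normalization, low counts removed by filterByExpr, p-values adjusted by Benjamini-Hochberg over all genes tested, threshold 0.05). The 5-FU responses and their difference were fitted on 16 libraries with experiment as a term, and the comparisons of genotypes on 8 sums, 1 per line, genotype and treatment, and 17478 genes. An SE is the size of the log2 fold change over the square root of F. CPM use TMM-scaled library sizes, and responses per pair use log2 CPM with a prior count of 2. Fits were also run on simulated data with known changes. The simulated line sums held no lasting differences between lines, so the check does not cover the cell numbers that oppose each other.

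DMSO and 5-FU libraries of the same line and experiment were paired, since cell numbers name lines: across genes the difference between lines correlated between treatments (r = 0.487 and 0.597 for WT, 0.708 and 0.632 for W329G). No library was a copy of its partner in a group and experiment, with a chi-square of 63.6 to 195 for each degree of freedom.

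The members, roles and lists were chosen with earlier results of these data known. Members printed with values in every library are those called in a comparison (at most 8) or with the replicate block (at most 6), the highest of each role per kilobase, and MYC, NCL, NPM1, FBL, POLR1A, POLR1B, UBTF and RRN3; outside them up to 4 called genes per list and comparison. Not all are printed, and TSR1, GNL3, UTP4 and NOP10 were added after their values were seen. Alternatives were DESeq2 1.42.0 and its size factors, no filter, no mitochondrial genes, each experiment alone, the replicate block, no experiment term, single libraries, and leaving out each replicate or line; exchanged cell numbers were added after seeing the data. One marker is not reported here.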

Additional observations from a re-analysis of the deposited data

Results flagged for a closer look

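Among the members named, 116 groups of 4 libraries were checked for a library far from the other 3, and 9 had one, where chance flags about 1 in 20 groups. Low values were NOLC1 at 76 CPM and HEATR1 at 47.7 CPM in WT 5-FU replicate 1, UTP14A at 23.7 CPM and NOP14 at 27.4 CPM in WT DMSO replicate 1, DKC1 at 140 CPM and EBNA1BP2 at 130 CPM in W329G DMSO replicate 3, and RRP12 at 63.6 CPM in W329G 5-FU replicate 3. EBNA1BP2 encodes a nucleolar protein of large subunit assembly, and its other W329G DMSO libraries measured 181, 187 and 185 CPM. High values were GNL2 at 110 CPM in WT DMSO replicate 2 and MYC at 102 CPM in WT 5-FU replicate 2.

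NOLC1 and TSR1 moved in opposite directions in all pairs of the 2 genotypes, and the tests of the difference gave 0.65 for NOLC1 (edgeR adjusted p = 0.261) and 0.33 for TSR1 (edgeR adjusted p = 0.51).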

How the results depend on the processing

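No member changed direction while called under any alternative run. Counts of called members were within 1.5 times the main count with DESeq2 size factors and without mitochondrially encoded genes. Pairing DMSO and 5-FU libraries as a replicate block moved the count from 7 to 18 in the WT response, from 2 to 9 in the W329G response and from 0 to 1 in the difference. A block on the cell number, which pairs different lines of the genotypes and so shares only a number, gave 1 member instead of 0 between genotypes under DMSO (3.37% of all tested genes) and 16 instead of 7 under 5-FU (18.9%). Without the low-count filter the WT response had 3 members, the W329G response 1 and the DMSO comparison 1. DESeq2 called 1 under DMSO and 14 under 5-FU (7.26% and 19.2% of all tested genes). Experiment 1 alone called 1 member in the WT response and experiment 2 alone 0, and each alone called 0 in the W329G response and 0 between genotypes under 5-FU. The shares of all tested genes called without the low-count filter and in each experiment alone are not given here. These counts are therefore not read as a trait of the members. Without a term for experiment both responses had 0. Exchanged cell numbers gave 0 under 5-FU. Leaving out 1 replicate gave 1 to 4 members in the WT response, 0 to 1 in the W329G response and 0 in the difference. Leaving out 1 line, whose genotype's lone line is then assumed to vary like the other groups, gave 0 to 5 under DMSO and 0 to 14 under 5-FU. Apart from the alternatives' own construction (fewer libraries or genes), the cause was not tested. Depth limits the low genes, such as PWP2 at 0.218 to 2.95 CPM, and each genotype has 2 lines.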
